A study of Mus musculus with 6 samples.

Results

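The 10 genes described here encode sensors of foreign or double-stranded RNA in the cell and the proteins that pass their signal on: Rigi, Ifih1, Dhx58, Tlr3, Eif2ak2, Mavs, Trim25, Tbk1, Irf3 and Adar. They were taken by symbol from a table of 19877 genes, and all 10 are listed in it. Their RNA was measured by mRNA sequencing in mouse cells labelled ADSCs, usually read as stem cells of fat tissue, after knockdown of Ifit1 (3 libraries) and with a scrambled control (3 libraries); the knockdown reagent and the sequence it targets are not labelled. All 6 libraries carry the genotype label WT, no further treatment is labelled, and each of 3 labelled batches holds 1 knockdown and 1 scrambled library. Whether each library had its own culture or animal is not labelled, so p-values reflect no more than library-to-library spread, which may be technical. A level is given in FPKM, the authors' fragment counts normalized for gene length and library depth.

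RIG-I (gene Rigi) and MDA5 (Ifih1) are helicases that recognise viral RNA in the cytosol and, through their CARD domains, switch on the mitochondrial adaptor MAVS. MAVS then recruits the kinase TBK1, which phosphorylates the transcription factor IRF3 to induce type I interferon, and several of the sensors are themselves interferon-stimulated genes. IFIT1, the knockdown target, is itself interferon-induced and blocks translation of RNAs whose 5′ end lacks the host's cap methylation. The data address which of these sensing genes differ in RNA level when Ifit1 is knocked down.

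The RNA of 6 of the 10 genes was lower in the knockdown, and the RNAs of the adaptor, the kinase and the transcription factor behind the sensors did not pass the test. Rigi, Ifih1, Dhx58, Eif2ak2, Trim25 and Adar fell, 0 rose, and Mavs, Tbk1 and Irf3 did not pass. Tlr3 was under the level filter of at least 1 FPKM in at least 3 libraries. Of the 10311 genes that met this filter, 31.1% passed in the lower direction and 19.8% in the higher one (limma on log2(FPKM + 0.5), Benjamini-Hochberg adjusted p under 0.05). The median log2 fold change was −0.43 over the 9 tested sensing genes and −0.05 over all tested genes. Ifih1 and Dhx58 met the filter through the scrambled libraries, since 1 of 3 knockdown libraries reached 1 FPKM for each, so the 9 are not a neutral sample of the 10. Fewer cells of a type and less RNA per cell cannot be told apart in these bulk libraries.

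**Figure D1:**
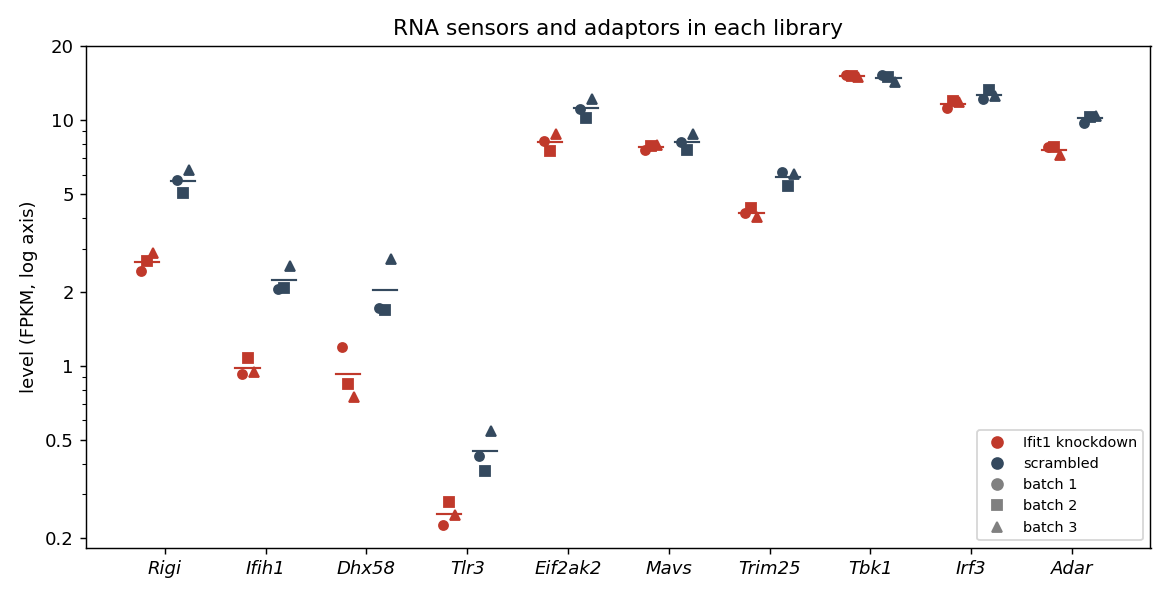
Level of each gene in FPKM on a log axis, with 1 point per library, the marker giving the batch and the bar giving the group mean. For Rigi, Ifih1, Dhx58, Tlr3, Eif2ak2, Trim25, Irf3 and Adar the 3 knockdown libraries lie below the 3 scrambled ones, while for Mavs and Tbk1 the groups overlap. The 3 knockdown libraries lie below in the same way for 37.3% of tested genes and 26.1% of all genes.

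The promoters are shown because several of these genes are known interferon targets, whose promoters often carry an interferon-stimulated response element. RefSeq windows on GRCm38.p6, from 250 bases before to 50 bases after an annotated start, were found for 9 of the 10 genes, the exception being Dhx58. They were searched on both strands for the core of that element, which is GAAA repeated after any 2 bases, for the shorter form GAAANNGAA, which every match of the longer form also contains, and for TTCNNNGAA, the palindromic site bound by STAT dimers. The 6 windows below are printed 5′ to 3′ on the gene's strand, with matches to either form of the element, on either strand, in capitals. They lie at chr4:40239776-40240075 (minus strand, Rigi), chr2:62646206-62646505 (minus, Ifih1), chr17:78882523-78882822 (minus, Eif2ak2), chr11:88999153-88999452 (plus, Trim25), chr3:89730468-89730767 (plus, Adar) and chr2:131233813-131234112 (plus, Mavs, shown as a window without a match).
Rigi: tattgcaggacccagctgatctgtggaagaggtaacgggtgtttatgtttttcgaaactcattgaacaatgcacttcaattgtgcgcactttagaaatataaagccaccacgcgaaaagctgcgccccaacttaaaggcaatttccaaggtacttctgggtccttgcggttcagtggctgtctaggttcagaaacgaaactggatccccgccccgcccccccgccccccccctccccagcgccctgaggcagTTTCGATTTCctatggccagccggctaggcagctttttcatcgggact
Ifih1: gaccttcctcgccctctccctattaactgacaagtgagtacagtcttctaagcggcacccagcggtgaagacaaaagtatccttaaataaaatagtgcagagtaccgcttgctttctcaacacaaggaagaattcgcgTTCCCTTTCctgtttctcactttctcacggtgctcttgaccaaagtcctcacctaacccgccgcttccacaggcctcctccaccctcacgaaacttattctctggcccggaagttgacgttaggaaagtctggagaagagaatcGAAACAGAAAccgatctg
Eif2ak2: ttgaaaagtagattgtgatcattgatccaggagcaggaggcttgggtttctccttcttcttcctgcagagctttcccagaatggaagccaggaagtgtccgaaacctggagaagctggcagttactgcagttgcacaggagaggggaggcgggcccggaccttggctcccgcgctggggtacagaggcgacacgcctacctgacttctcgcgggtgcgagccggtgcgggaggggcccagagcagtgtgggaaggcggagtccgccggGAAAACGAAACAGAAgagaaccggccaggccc
Trim25: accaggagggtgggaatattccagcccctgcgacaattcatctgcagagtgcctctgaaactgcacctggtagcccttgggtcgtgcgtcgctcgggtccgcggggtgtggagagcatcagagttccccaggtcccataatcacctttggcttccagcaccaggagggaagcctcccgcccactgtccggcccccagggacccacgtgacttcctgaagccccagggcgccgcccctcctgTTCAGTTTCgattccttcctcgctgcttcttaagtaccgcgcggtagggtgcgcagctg
Adar, the third annotated start: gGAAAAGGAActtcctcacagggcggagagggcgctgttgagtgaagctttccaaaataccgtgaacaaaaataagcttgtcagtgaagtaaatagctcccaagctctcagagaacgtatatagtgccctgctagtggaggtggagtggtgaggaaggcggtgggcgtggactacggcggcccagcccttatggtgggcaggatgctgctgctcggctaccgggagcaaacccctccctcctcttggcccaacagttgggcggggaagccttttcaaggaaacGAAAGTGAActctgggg
Mavs: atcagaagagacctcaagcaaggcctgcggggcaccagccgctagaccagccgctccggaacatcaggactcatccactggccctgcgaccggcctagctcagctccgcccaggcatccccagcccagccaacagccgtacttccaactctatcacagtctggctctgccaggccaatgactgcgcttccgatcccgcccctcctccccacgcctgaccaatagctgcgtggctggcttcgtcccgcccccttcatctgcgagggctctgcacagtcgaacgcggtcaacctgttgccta

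The longer form stood in the windows of 3 genes, Rigi, Ifih1 and Eif2ak2, and in 3.99% of the 27025 genes with a window. In each of the 3 it lay just after the annotated start, at bases 3 to 12 in Rigi, 33 to 42 in Ifih1 and 19 to 28 in Eif2ak2, counted from the start as base 1. The shorter form was found in 2 more, Trim25 and the third of 3 annotated starts of Adar, and in 9.76% of all genes, and Ifih1 held another at bases −112 to −104. The sequence TTCNNNGAA was found in Eif2ak2 and at the third start of Adar, against 9.55% of all genes. No match to any of the 3 stood in the windows of Tlr3, Mavs, Tbk1 and Irf3. The Tlr3 window (chr8:45410331-45410630, minus strand) lay inside the gene, whose 5′ end is annotated at 45411075. The bases around that outer end were not searched. The 5 genes with the shorter form are all among the 6 that fell, and the sixth, Dhx58, had no window. Tlr3 and Irf3, without a match, also had all knockdown values below the scrambled ones, as had 37.3% of tested and 26.1% of all genes. Tlr3 was called lower in the fit without a level filter, and Irf3 after rescaling to TPM. The search was added after these calls were seen, so setting motifs beside calls is a description and no test. Of 285 tested genes with the longer form 35.4% were lower in the knockdown, against 30.7% of 8035 tested genes with a window and without it, and for the shorter form the shares were 30.5% and 30.9%. A match to these letters is a description and not a measured binding site.

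**Figure D2:**
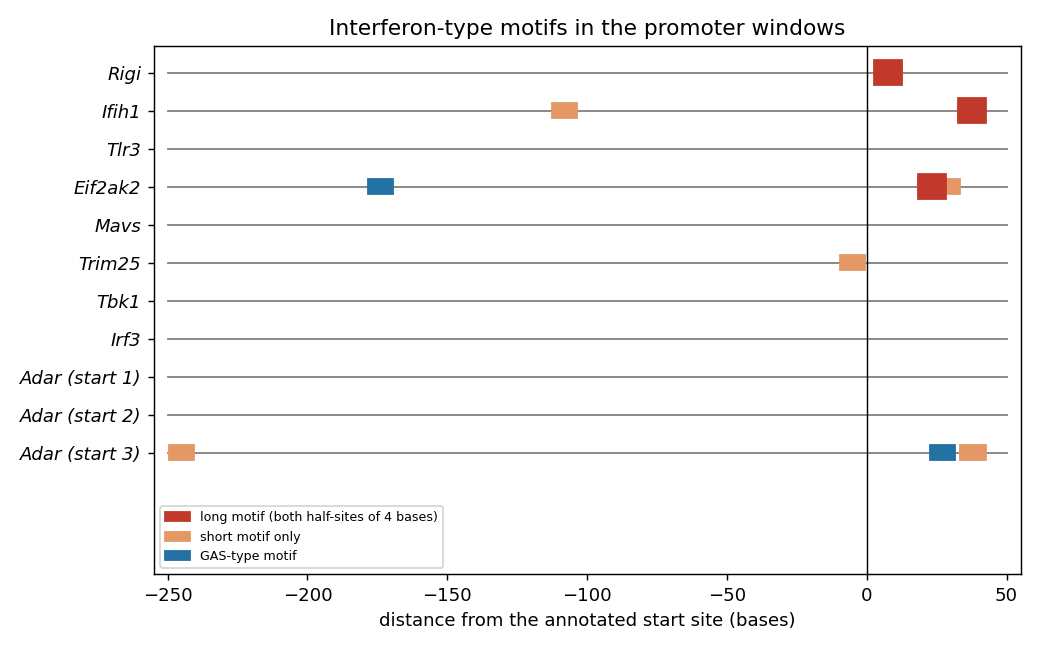
Matches to the 3 motifs in the promoter windows, plotted by distance in bases from the annotated start, with 1 line per window and red, orange and blue blocks for the longer, the shorter and the STAT-type motif. The red blocks of Rigi, Ifih1 and Eif2ak2 lie within 50 bases after the start, and the lines of Tlr3, Mavs, Tbk1 and Irf3 are empty.

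Of the 9 tested sensing genes, the 3 RIG-I-like receptors fell the most. Rigi, whose protein recognises RNA with an uncapped phosphorylated end, had 2.42, 2.67 and 2.87 FPKM in knockdown libraries 1, 2 and 3, against 5.72, 5.03 and 6.25 FPKM in scrambled libraries 1, 2 and 3. The groups were apart, and the highest knockdown value was well under the lowest scrambled one. The knockdown mean of 2.65 ± 0.224 FPKM was 46.8% of the scrambled mean of 5.67 ± 0.613 FPKM (SD, n = 3 each), a log2 fold change of −0.97 ± 0.09 (SE, limma adjusted p = 7e-05). Within the 3 batches the difference ran from −1.09 to −0.81. Of the 10311 tested genes, 125 (1.21%) had a lower fold change than Rigi. Rigi lies on chromosome 4, positions 40203777 to 40239825, minus strand (GRCm38.p6, where it carries its older symbol Ddx58).

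Ifih1, which senses long double-stranded RNA, had 0.924, 1.08 and 0.945 FPKM in the knockdown libraries, against 2.06, 2.08 and 2.54 FPKM in the scrambled ones. The 3 knockdown values lay close together and all fell under the scrambled range. Its knockdown mean was 44.1% of the scrambled mean, with a log2 fold change of −0.88 ± 0.09 (SE, limma adjusted p = 0.000154). These values rested on 192 to 216 fragments in knockdown and 439 to 543 in scrambled libraries. Ifih1 met the level filter through the scrambled libraries, and without the filter its limma adjusted p was 0.00285. Ifih1 lies on chromosome 2 (62595618 to 62646255, minus strand).

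Dhx58 encodes LGP2, the family member without CARD domains, which binds RNA and modulates the other 2 receptors. Its level was 1.19, 0.843 and 0.746 FPKM in the knockdown libraries, against 1.72, 1.68 and 2.71 FPKM in the scrambled ones. Knockdown library 1 and scrambled library 3 stood above the others of their group, and the groups still did not overlap. The log2 fold change was −0.82 ± 0.17 (SE, limma adjusted p = 0.00383), with the largest standard error of the 9 tested sensing genes, and the differences within batches 1, 2 and 3 were −0.40, −0.70 and −1.36. With 68 to 109 fragments per knockdown library, counting alone gave an error of up to 12.1% of the value. Dhx58 likewise met the level filter through the scrambled libraries, and without the filter its limma adjusted p was 0.0286. Dhx58 lies on chromosome 11 (100694884 to 100704271, minus strand), and 141 of its exon bases overlap an antisense gene whose reads cannot be told apart from its own without a stated strand setting.

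The summed level of the 3 receptors was 4.54, 4.58 and 4.56 FPKM in the knockdown libraries, against 9.51, 8.79 and 11.5 FPKM in the scrambled ones. The knockdown sums were nearly equal, while the scrambled sums spread by more than 2 FPKM. The shares of the 3 genes in the sum differed between the group means by less than the SD within a group, which 3 libraries a group cannot show to be equality. Rigi gave 58.1% ± 4.77 of it in knockdown and 57.2% ± 2.87 in scrambled libraries, Ifih1 gave 21.5% ± 1.69 and 22.5% ± 1.05, and Dhx58 gave 20.3% ± 5.23 and 20.3% ± 2.88 (SD, n = 3 each, FPKM being per length). Low genes as a class were also lower in the knockdown: the 1771 tested genes with a mean under 3 FPKM Ifih1 and Dhx58 among them, had a median log2 fold change of −0.18, with 39.1% called lower. The 5th percentile of that class was −0.84, between the values of Ifih1 and Dhx58. In the class of 3 to 10 FPKM, which holds Rigi, the median was −0.09, the 5th percentile −0.60 and the share called lower 36.8%. The part of level in the receptors' values was not tested.

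Outside the cytosolic helicases, Tlr3, the endosomal receptor of double-stranded RNA, had the lowest level of the 10 genes and was under the level filter. It had 0.225, 0.279 and 0.248 FPKM in the knockdown libraries, against 0.430, 0.375 and 0.541 FPKM in the scrambled ones. The groups did not overlap, as for 26.1% of all 19877 genes in this direction. The values rested on 42 to 51 fragments in knockdown and 71 to 104 in scrambled libraries, with a counting error of up to 15.4%. Of the exon bases of Tlr3, 381 overlap an antisense gene without a listed level, whose reads cannot be told apart without a stated strand setting. In the fit without a level filter its log2 fold change was −0.33 ± 0.07 (SE, limma adjusted p = 0.0234), where 16.4% of 19877 genes were called lower and 25.4% in either direction. The pseudocount of 0.5 exceeds most of these values, so this fold change understates the ratio of means of 0.560.

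Eif2ak2 encodes PKR, a kinase that is activated by double-stranded RNA and phosphorylates the initiation factor eIF2 to stop translation. It had 8.23, 7.45 and 8.77 FPKM in the knockdown libraries, against 11.1, 10.2 and 12.2 FPKM in the scrambled ones. Every knockdown value was below every scrambled one, and in both groups library 2 was lowest and library 3 highest. The log2 fold change was −0.43 ± 0.08 (SE, limma adjusted p = 0.00179), with differences of −0.41, −0.43 and −0.45 within batches 1, 2 and 3. Of the exon bases of Eif2ak2, 174 overlap a non-coding gene on the opposite strand, listed at no more than 0.078 FPKM in any library. A further overlap of 47 bases is with an rRNA gene without a listed level. The other 3 eIF2 kinases answer to other stresses. Eif2ak4 (GCN2, amino acid shortage) fell by 0.23 and Eif2ak3 (PERK, endoplasmic reticulum stress) fell by 0.29 on the log2 scale, and Eif2ak1 (HRI, haem shortage) stood at 0.05 (limma adjusted p = 0.00348, 0.00674 and 0.305). Eif2ak3 and Eif2ak1 were picked for their role after their values were seen, and the adjusted p of Eif2ak3 reached 0.0649 among the alternatives. The substrate gene Eif2s1 rose by 0.25 (66.7 ± 2.08 FPKM in knockdown and 56.0 ± 1.68 FPKM in scrambled libraries, limma adjusted p = 0.000563).

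Trim25, a ubiquitin ligase that promotes RIG-I signalling, had 4.17, 4.37 and 4.04 FPKM in the knockdown libraries, against 6.16, 5.41 and 6.05 FPKM in the scrambled ones. The groups did not overlap. Its log2 fold change was −0.44 ± 0.06 (SE, limma adjusted p = 0.000589), and its knockdown mean was 71.4% of the scrambled mean. Rnf135 (Riplet), another ligase known to act on RIG-I, had a log2 fold change of −0.34 (limma adjusted p = 0.0181). It was likewise picked by role, and it lost its call under quantile normalization (−0.15), without the level filter (limma adjusted p = 0.0698) and with some libraries left out (limma adjusted p up to 0.0676).

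Adar encodes ADAR1, which edits adenosine to inosine in double-stranded RNA and so keeps the cell's own RNA from activating MDA5 and PKR. It had 7.74, 7.74 and 7.19 FPKM in the knockdown libraries, against 9.74, 10.3 and 10.4 FPKM in the scrambled ones. The spread within each group was small beside the gap between them. Its log2 fold change was −0.40 ± 0.05 (SE, limma adjusted p = 0.00028). The constitutive and the interferon-induced isoform share most exons and are summed in the table. Of its exon bases, 1365 overlap Chrnb2 on the opposite strand, and that gene was listed at no more than 0.0319 FPKM in any library. The second editing enzyme, Adarb1, was at 0.826, 0.785 and 0.771 FPKM in the knockdown and 1.22, 1.03 and 1.01 FPKM in the scrambled libraries (log2 fold change −0.29, limma adjusted p = 0.0287). It was picked by role as well and met the level filter through the scrambled libraries alone, and its fold change turned to 0.05 under quantile normalization.

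The genes that carry the signal onward stood near 0. Mavs, the adaptor shared by RIG-I and MDA5, had 7.55, 7.85 and 7.90 FPKM in the knockdown libraries, against 8.16, 7.58 and 8.73 FPKM in the scrambled ones. Scrambled library 2 lay among the knockdown values, and the log2 fold change was −0.07 ± 0.06 (SE, limma adjusted p = 0.362). Its sign turned under median centring and quantile normalization. Tbk1, the kinase that phosphorylates IRF3, had 15.2, 15.1 and 15.0 FPKM in the knockdown libraries, against 15.2, 15.0 and 14.3 FPKM in the scrambled ones. These values overlapped (0.03 ± 0.04, limma adjusted p = 0.588), and the sign turned after rescaling to TPM.

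Irf3, the transcription factor at the end of the chain, had 11.2, 11.9 and 11.8 FPKM in the knockdown libraries, against 12.2, 13.2 and 12.5 FPKM in the scrambled ones. The knockdown values were all lower, as for 37.3% of tested genes (23.8% had all knockdown values higher), but by little. In its level class of 10 to 100 FPKM, 26.4% of genes were called lower. The log2 fold change of −0.11 ± 0.05 did not pass (SE, limma adjusted p = 0.0746), and it passed in the alternative rescaled to TPM (−0.16, limma adjusted p = 0.0233). Of its exon bases 88 overlap Bcl2l12 on the opposite strand, which stood at 8.59 FPKM or more in every library. A p over the threshold does not show that these 3 RNAs were unchanged, and the standard errors of 0.04 to 0.06 set the size of a change that could have been missed.

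**Figure D3:**
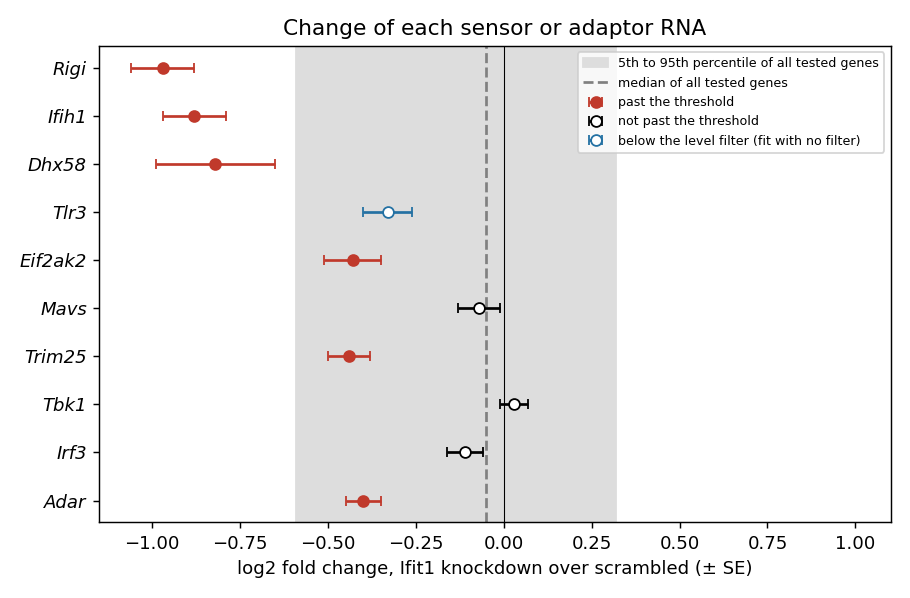
Log2 fold change of each gene, knockdown over scrambled, with its SE as bars, red points for genes past the threshold, open black points for those not past it and the blue point for Tlr3 from the fit without a level filter. The grey band runs from the 5th to the 95th percentile of all tested genes (−0.59 to 0.32), and Rigi, Ifih1 and Dhx58 lie outside it.

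The levels were also set against Mavs in the same library. On the log2 scale of the FPKM ratio, Rigi stood at −1.64, −1.56 and −1.46 in the knockdown libraries, against −0.51, −0.59 and −0.48 in the scrambled ones. The ratio of Ifih1 to Mavs was −2.99 ± 0.10 in knockdown and −1.88 ± 0.10 in scrambled libraries, and that of Eif2ak2 was 0.07 ± 0.12 and 0.45 ± 0.03 (SD, n = 3 each). For 7 of the 9 ratios the groups did not overlap, each lower in the knockdown, as for 22.6% of the ratios of all other tested genes to Mavs. For Tbk1 and Irf3 they overlapped. With 3 libraries against 3, the two-sided exact permutation test cannot go below p = 0.1, which these 7 ratios reached (p = 0.129 adjusted over the 9), so the test cannot show by itself that these genes changed differently from Mavs.

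**Figure D4:**
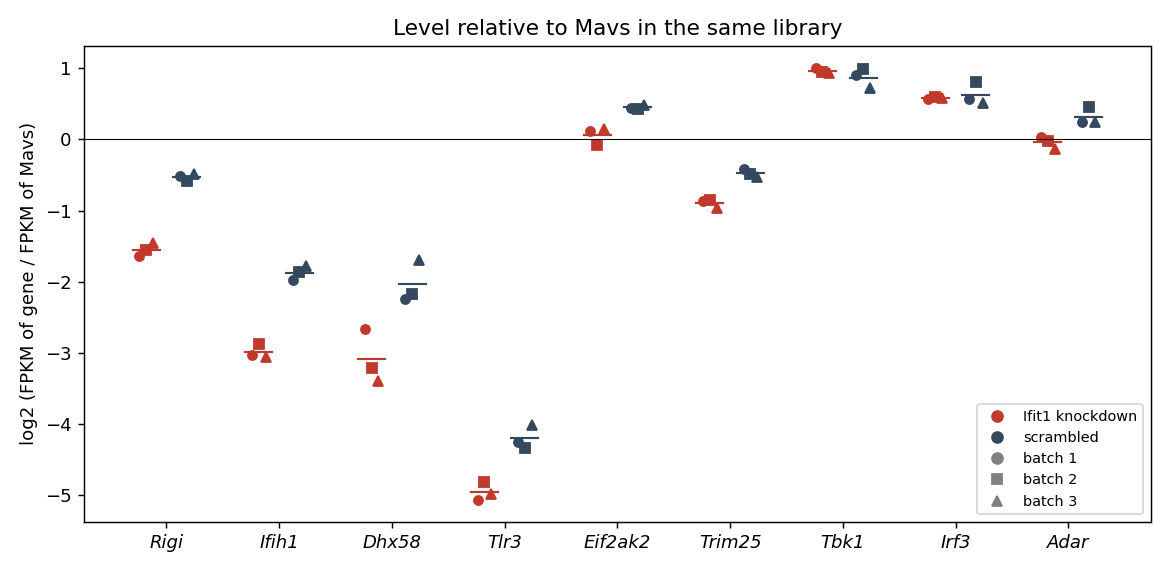
Log2 of the FPKM of each gene over that of Mavs in the same library, with 1 point per library and bars for group means. The knockdown points of Rigi, Ifih1, Dhx58, Tlr3, Eif2ak2, Trim25 and Adar lie below the scrambled points, and those of Tbk1 and Irf3 overlap them.

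In order of level per length, Tbk1 was highest and Tlr3 lowest in both groups. In knockdown libraries the mean levels ran from 15.1 FPKM for Tbk1 through Irf3 (11.6), Eif2ak2 (8.15), Mavs (7.76), Adar (7.56), Trim25 (4.19), Rigi (2.65), Ifih1 (0.981) and Dhx58 (0.927) to 0.251 FPKM for Tlr3. The values of Eif2ak2 and Mavs, of Mavs and Adar and of Ifih1 and Dhx58 overlapped between neighbours in this order. In scrambled libraries the order was Tbk1, Irf3, Eif2ak2, Adar, Mavs, Trim25, Rigi, Ifih1, Dhx58 and Tlr3, and the neighbours Irf3 and Eif2ak2, Eif2ak2 and Adar, Trim25 and Rigi, and Ifih1 and Dhx58 overlapped. Whether the order itself differs between the groups was not tested.

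The genes around the sensors went both ways. Of 75 genes in 5 lists of cofactors, signalling proteins, related sensors, RNA-binding proteins and cytokine outputs, 59 were tested, 21 fell (35.6%) and 17 rose (28.8%), with a median log2 fold change of −0.04, against 31.1%, 19.8% and −0.05 over all tested genes. The split depended on scaling, with 15 lower and 23 higher under median centring, 11 and 16 under quantile normalization, and 25 and 12 after rescaling to TPM. Of 16 tested cofactors and regulators of the RIG-I-like receptors 5 fell (31.2%, with 31.1% of all tested genes) and 8 of 16 rose, where 19.8% of all did. Higher calls were more common among abundant genes: 339 of 631 tested genes of 100 FPKM and over rose, against 112 of 1771 under 3 FPKM. Several of the 8 that rose, Ywhae among them, are in the class of 100 FPKM and over. The part of level in the shares of these lists was not tested. Zc3hav1, the zinc-finger antiviral protein, fell by 0.39 (10.7 ± 0.0288 FPKM in knockdown and 14.1 ± 0.325 FPKM in scrambled libraries, limma adjusted p = 9.79e-05). The ubiquitin ligase Smurf1 rose by 0.27, the adaptor protein gene Ywhae by 0.18 and the helicase Dhx15 by 0.19 (limma adjusted p = 0.000376, 0.000491 and 0.000768).

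Among 21 tested genes of signalling downstream of MAVS and TRIF, 5 fell (23.8%), 4 rose (19.0%) and 12 did not pass, shares under those of all tested genes (31.1% and 19.8%). Irf7, the interferon-induced relative of IRF3, had 1.30, 0.382 and 0.357 FPKM in the knockdown libraries, against 2.16, 2.50 and 3.27 FPKM in the scrambled ones. Knockdown library 1 stood above the other knockdown libraries, as it did for Dhx58. The log2 fold change was −1.49 ± 0.27 (SE, limma adjusted p = 0.00199), and −1.84 without that library. Like Ifih1 and Dhx58, Irf7 met the level filter through the scrambled libraries, and without the filter its limma adjusted p was 0.0207. Its values rest on as few as 24 fragments, a counting error of 20.4%. Ikbke, the interferon-inducible relative of TBK1, fell by 0.39 (1.11 ± 0.121 FPKM in knockdown and 1.62 ± 0.170 FPKM in scrambled libraries, limma adjusted p = 0.00914), a call lost under quantile normalization. Tnfaip3 (A20), a brake on NF-κB signalling, rose by 0.55 and Tomm70a, a mitochondrial import receptor that binds MAVS, by 0.28 (limma adjusted p = 0.000324 and 0.000263).

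Of 5 tested genes of endosomal and DNA sensing, 3 fell and 0 rose, where 31.1% of all tested genes fell. Unc93b1, the chaperone that brings TLR3 and other nucleic acid receptors to the endosome, had 1.63, 1.19 and 1.22 FPKM in the knockdown libraries, against 3.54, 3.54 and 4.59 FPKM in the scrambled ones. Its groups were far apart, with a log2 fold change of −1.25 ± 0.12 (SE, limma adjusted p = 9.9e-05). Sting1, the adaptor of cytosolic DNA sensing, fell by 0.40 (limma adjusted p = 0.000136). Ifi204, a DNA-binding interferon-inducible protein, fell by 0.25 (limma adjusted p = 0.0392), but its groups overlapped and it lost its call in 8 alternatives. Of the others, named for their role after their values were seen, Cgas, the DNA sensor upstream of STING, stood at 0.06 (limma adjusted p = 0.333), and Tlr7 and Tlr9 were at or near 0 in every library.

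Of 15 tested genes of double-stranded RNA binding, editing and eIF2 control, 6 fell (40.0%) and 5 rose (33.3%), against 31.1% and 19.8% of all tested genes. Besides Eif2ak4 and Eif2s1, the PKR activator Prkra (PACT) fell by 0.34 and the RNA helicase Ddx3x rose by 0.23 (limma adjusted p = 0.00335 and 0.000231), and Prkra lost its call under quantile normalization. Both tested cytokine outputs fell. The chemokine Cxcl10 had 8.18, 7.91 and 7.52 FPKM in the knockdown libraries, against 16.1, 17.1 and 18.7 FPKM in the scrambled ones (log2 fold change −1.09, limma adjusted p = 1.49e-05). The chemokine Ccl5 averaged 3.01 ± 0.625 FPKM in knockdown and 8.84 ± 0.372 FPKM in scrambled libraries (log2 fold change −1.43, limma adjusted p = 5.35e-05). Il6 was at or near 0 in every library, with at most 0.143 FPKM. The symbols Ifnb1, Ifna4 and Ifnl2 are not among the 19877 genes listed, so no level can be given for them. By the authors' own annotation, 54 genes belong to RIG-I-like receptor signalling, 8 of the 10 sensing genes among them. Of the 37 other annotated genes that were tested, 12 fell (32.4%) and 5 rose (13.5%), with a median of −0.05. Of all tested genes 31.1% fell and 19.8% rose, with a median of −0.05, so the share that rose was smaller among the annotated genes.

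**Figure D5:**
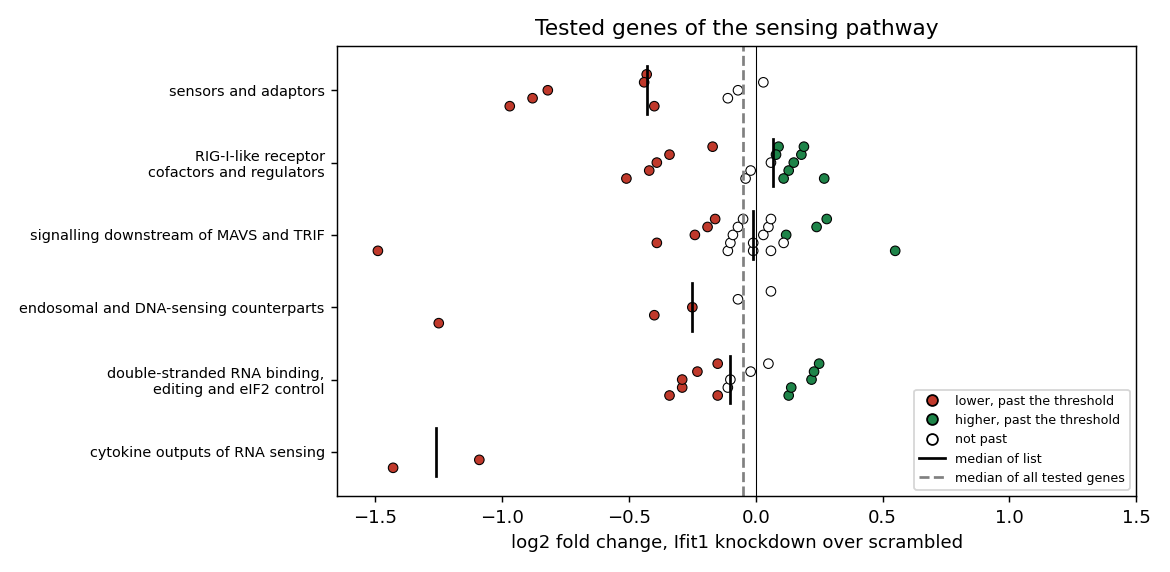
Log2 fold change of each tested gene, knockdown over scrambled, in the sensing genes and 5 neighbouring lists, with red for lower and green for higher past the threshold, open points for genes not past it, and bars for list medians. The sensing genes have a median of −0.43, while the list of cofactors has 8 green and 5 red points and 12 of the 21 points of the signalling list are open.

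The libraries held 32.2 to 40.2 M recovered fragments in the knockdown and 37.1 to 40.6 M in the scrambled group. Ifit1 itself had 1.76, 1.48 and 1.51 FPKM in the knockdown libraries, against 4.90, 3.75 and 4.97 FPKM in the scrambled ones. Of 10 stromal cell markers, 9 were at 1 FPKM or more in every library, with Nt5e (CD73) under 0.4 FPKM in all. Their sum was 1135 to 1253 FPKM in knockdown and 1660 to 1835 FPKM in scrambled libraries, and without Col1a1 it was 503 to 539 FPKM in knockdown and 502 to 505 FPKM in scrambled libraries. The knockdown values of 6 stromal markers lay below and those of 3 (Cd44, Itgb1 and Alcam) above all scrambled values. Of tested genes 37.3% lay below and 23.8% above in this way, and of all genes 26.1% lay below. The same shares apply beside the counts of the other marker lists. Of 9 macrophage markers looked for, 7 had a level given, and Adgre1 and Aif1 had none. Of the 7, Cd68 and Cd14 passed 1 FPKM and Ptprc was at no more than 0.00524 FPKM. The list sum was 5.88 to 5.97 FPKM in knockdown and 4.54 to 5.61 FPKM in scrambled libraries. Without Cd14 that sum was 1.75 to 2.17 FPKM in knockdown and 1.95 to 2.39 FPKM in scrambled libraries. The knockdown values of 1 macrophage marker (Cd14) lay above and those of 1 (Csf1r) below all scrambled values, and 5 overlapped. Of 7 lymphocyte and mast cell markers 4 had a level given, and of 7 endothelial ones 6 had. These each summed, as lists, to at most 0.165 FPKM in any library. Of 7 epithelial and mesothelial markers, Krt19 and Msln were abundant and Epcam was under 0.3 FPKM, with a list sum of 97.0 to 97.3 FPKM in knockdown and 87.3 to 98.1 FPKM in scrambled libraries. Within that list Krt19 was higher in every knockdown library (78.5 to 83.6 against 66.4 to 70.6 FPKM), Krt8 and Krt18 were lower in every one, and the values of Msln overlapped. The part of cell make-up in the results above was not tested.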

How the data were processed

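The authors deposited 1 table of FPKM values, 1 column per library and 19877 genes. Per the submitters' processing notes the builds GRCm38, mm10 and GRCm39 are named, with no step given for each. Alignment, counting, strand setting and filters: not given in the sources used here. All positions and promoter windows are RefSeq's on GRCm38.p6. Per the labels' protocols, mRNA capture beads and heat fragmentation preceded cDNA synthesis.

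Whole fragments behind the FPKM were recovered from their common steps within 0.002 of a whole number for all 19877 genes, and used to state depth. They cover counting error only. Where several multiples fitted, the lowest was kept, which can understate a gene's fragments. Genes with at least 1 FPKM in at least 3 of 6 libraries (10311) were tested on log2(FPKM + 0.5) with limma 3.58.1 in R 4.3.3 (trend, two-sided), adjusted by Benjamini-Hochberg over all of them. The added 0.5 shrinks fold changes of low genes. An error after a level is the SD and after a fold change the SE. The test recovered known changes in simulated data, in which far fewer genes changed than were called here and 1 fixed spread held for all genes. Falls as mild as those of Eif2ak2, Trim25 and Adar were not simulated, so the simulation does not check those calls.

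The genes and lists were chosen with earlier results of these data known. Named are the 10 genes, Ifit1, up to 4 called genes of smallest p per neighbouring list and the cytokine outputs, and others are marked where picked by role. The motif search was added after the data were seen.

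Libraries of 1 number share a labelled batch, so the number pairs them. The deviations of same-numbered libraries from their group means correlated at 0.09, 0.01 and 0.19 over the tested genes, and those of differently numbered ones at −0.17 to 0.11, so the pairing comes from the labels and is not evident in the data. No 2 libraries of a group agreed within sampling noise (chi-square per gene 3.11 to 10.8). Alternatives were other pseudocounts, filters, scalings, limma without trend, limma-voom on the fragments, batch as a block and leaving out each library.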

Additional observations from a re-analysis of the deposited data

How the results depend on the processing

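The 6 lower calls among the sensing genes were made again under every alternative that tested those genes. The count was 6 of 9 with a pseudocount of 0.1 or 1, under median centring, under quantile normalization, without the limma trend, with limma-voom, with the replicate block of batch and without any 1 library (6 to 6). It was 7 of 10 without a level filter, where Tlr3 was tested and called, 7 of 9 after rescaling to TPM, where Irf3 was called, and 3 of 6 with a mean of at least 5 FPKM, where Rigi, Ifih1 and Dhx58 were not tested. The log2 fold change ran over all alternatives from −1.09 to −0.82 for Rigi, −1.18 to −0.66 for Ifih1, −1.12 to −0.58 for Dhx58, −0.49 to −0.36 for Eif2ak2, −0.51 to −0.32 for Trim25 and −0.46 to −0.32 for Adar. Mavs turned to 0.00 under median centring and 0.01 under quantile normalization, and Tbk1 to −0.02 after rescaling to TPM. The share of all calls that were higher was 38.9% and became 56.7% under median centring (3001 higher, 2293 lower), 52.4% under quantile normalization (2486 and 2256) and 27.6% after rescaling to TPM (1540 and 4035). The neighbouring lists had 38 calls, 27 under quantile normalization and 36 with the replicate block, which changed no call of a sensing gene. Among the 10 sensing genes, counting error was largest for Tlr3 (15.4%) and Dhx58 (12.1%).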
